A study of Mus musculus with 40 samples.

Results

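A set of 10 genes that mark dendritic cells was followed through the RNA of CD11b+ cells sorted from mouse brains with experimental gliomas. They were taken by symbol as rows of the deposited expression tables, and all 10 were found among the 54513 rows of each table, 21826 of which are protein-coding genes. Flt3 and Zbtb46 mark the conventional dendritic cell lineage, Xcr1, Clec9a and Batf3 mark type 1 conventional dendritic cells (cDC1), Cd209a and Irf4 mark type 2 cells (cDC2), and Ccr7, Ccl22 and Fscn1 mark mature migratory dendritic cells. The rule used their names and not their values.

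The study asked whether an intratumoral peptide that blocks integrins changes the myeloid cells of gliomas, alone or with PD-1 blockade. Adult male mice carried GL261 cells (a murine glioma line, with tdTomato and luciferase) or U87-MG cells (a human glioma line, with RFP) in the striatum, and an osmotic pump delivered water (vehicle), 7aaRGD, or 7aaRAE, a control peptide in which the RGD motif is replaced. The 21 DPI (days post-implantation) GL261 experiment in C57BL/6J mice had naïve, vehicle, 7aaRGD and 7aaRAE groups of 3 samples, each pooled from 2 animals. At 28 DPI single GL261-bearing mice gave 4 vehicle, 4 7aaRGD, 3 anti-PD-1 and 3 combination (7aaRGD and anti-PD-1) samples. In that experiment anti-PD-1 antibody was injected intraperitoneally, the controls received IgG, and the pumps of vehicle and anti-PD-1 mice held water. The sample labels call these mice nude, while the study's methods describe C57BL/6 mice. The study calls the mice of this experiment immunocompetent and states that synergy of both treatments could not be tested in immunodeficient animals. Why the labels differ was not resolved here. U87-MG gliomas grew in athymic Nude-Foxn1nu mice, which lack a thymus and hence most T cells, with vehicle, 7aaRGD and 7aaRAE groups of 3 samples at 21 DPI, each pooled from 2 animals. Of 40 samples in the series 35 were analysed; 3 naïve nude samples, 1 anti-PD-1 sample and 1 combination sample were not analysed here.

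Conventional dendritic cells depend on the cytokine FLT3L, take up antigen in tissues and present it to T cells. cDC1 cross-present antigen to CD8+ T cells, while cDC2 mainly prime CD4+ T cells. On maturation both can switch on CCR7, which guides them to draining lymph nodes, together with chemokines and cytoskeletal proteins. The healthy brain parenchyma holds few such cells, and cDC1 usually carry little CD11b, so a CD11b+ sort enriches for microglia, monocytes, macrophages and cDC2. The sorted RNA was from bulk cells, so fewer cells of a type and less RNA per cell cannot be told apart in any value here.

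The members lie on 8 chromosomes of the mm10 build. Flt3, the receptor of FLT3L, is at chr5:147330741-147400489 on the minus strand, and Zbtb46, a transcription factor of the conventional dendritic lineage, at chr2:181387762-181459426 on the minus strand. Among the cDC1 genes, Xcr1 (the receptor of the chemokine XCL1) is at chr9:123852315-123862029, minus strand, Clec9a (a receptor for dead cells) at chr6:129408862-129424763, plus strand, and Batf3 (a factor needed for cDC1 development) at chr1:191097847-191108945, plus strand. Of the cDC2 genes, Cd209a (a C-type lectin) is at chr8:3743397-3748984, minus strand, and Irf4 (a transcription factor) at chr13:30749226-30766976, plus strand. Ccr7, the chemokine receptor of migration to lymph nodes, is at chr11:99144196-99155077, minus strand. Ccl22, a chemokine for CCR4-bearing T cells, is at chr8:94745590-94751699, plus strand, and Fscn1, an actin-bundling protein of dendrites, at chr5:142960343-142973185, plus strand.

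The 250 bases before the start of 9 members were searched on both strands in the RefSeq promoter table (GRCm38.p6), and Ccr7 has no entry there. The window of Batf3 lies inside the gene as GENCODE draws it, with 163 of its 250 bases in exons. An AP-1 site (TGANTCA), the letters bound by BATF-JUN dimers, was found in 1 member, Zbtb46, and in 6.75% of all 32851 promoters. The ETS-IRF composite, which is GGAA, any 2 bases and GAAA and is bound by PU.1 with IRF4 or IRF8, was in none of the 9 and in 2.3% of all promoters, and the NF-kB motif was in none of the 9 and in 7.25%. Such a match is a run of letters in a window, and bound factors were not measured. The stretch of Zbtb46 is shown because it holds the match, which ends 54 bases before the RefSeq start, and those of Ccl22 and Fscn1 because these genes rose together at 28 DPI, a choice made after their values were seen. The Zbtb46 stretch (chr2:181424389-181424638, minus strand) lies in an intron of the gene as GENCODE draws it, before a RefSeq start inside the gene. Whether RNA starts there was not tested, so the stretch may not be a promoter. Those of Ccl22 (chr8:94745434-94745589, plus strand) and Fscn1 (chr5:142960105-142960342, plus strand) lie upstream of their genes and are shorter than the searched 250 bases because they stop where the GENCODE gene begins. Capitals mark the AP-1 site, read 5′ to 3′ on the strand of the gene.
Zbtb46: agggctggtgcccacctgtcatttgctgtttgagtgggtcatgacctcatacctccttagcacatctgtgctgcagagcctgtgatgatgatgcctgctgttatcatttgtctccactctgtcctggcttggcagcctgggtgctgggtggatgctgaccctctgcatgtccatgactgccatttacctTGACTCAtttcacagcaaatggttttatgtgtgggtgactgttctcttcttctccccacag
Ccl22: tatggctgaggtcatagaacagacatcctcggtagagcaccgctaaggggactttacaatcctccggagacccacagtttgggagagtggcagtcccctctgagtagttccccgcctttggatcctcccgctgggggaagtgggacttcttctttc
Fscn1: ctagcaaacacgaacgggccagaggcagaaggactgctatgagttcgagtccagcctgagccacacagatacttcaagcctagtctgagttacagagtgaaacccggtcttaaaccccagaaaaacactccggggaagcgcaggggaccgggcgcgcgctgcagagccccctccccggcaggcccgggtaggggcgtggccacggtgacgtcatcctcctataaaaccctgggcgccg

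Levels are given in RPKM, reads scaled to transcript length and library size, after the constant of 2 in the deposited values was taken off. Each of the 3 experiments was normalised as a table of its own, so levels may be set side by side across tables but were not tested between them. Depth per sample is unknown because read counts were not analysed here. Between 3.13% and 8.78% of values in a sample lie under the constant, members included, with 5 of 140 member values at 28 DPI (lowest -0.209 RPKM) and 6 of 90 in U87-MG. Itgam, the gene of CD11b, was present throughout, with group means from 59.5 RPKM in 21 DPI vehicle samples to 180 RPKM in U87-MG vehicle samples. The summed level of 8 B cell and plasma cell markers was 18.3 RPKM in naïve mice and between 3.59 and 10.1 RPKM in the tumor-bearing groups, with Ms4a1 at most 0.112 RPKM in any group mean.

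The members differed widely in level and in which experiment they were high. Of the 10 genes, Fscn1 had the highest mean in each of the 11 groups, from 14.8 ± 4.18 RPKM (SD, n = 4) in 28 DPI vehicle samples to 440 ± 15.1 (n = 3) in naïve mice. Xcr1 was the lowest of the 10 in each GL261 group, with no group mean above 0.0961 RPKM. Naïve samples averaged 0.292 RPKM of Ccr7 and 0.420 of Ccl22 beside 440 of Fscn1. They averaged 0.0460 RPKM of Clec9a and 0.0206 of Xcr1 beside 7.95 of Batf3. Fscn1 and Batf3 thus did not follow the other genes of their sets there, and which cells carried them was not tested. Ccr7 averaged 44.7 ± 6.29 RPKM (n = 3) in the vehicle group of GL261 gliomas at 21 DPI, 0.684 ± 0.236 (n = 4) at 28 DPI and 0.517 RPKM in U87-MG gliomas. Ccl22 followed the same order, with 26.0, 1.27 and 0.817 RPKM, while Batf3 stayed within 9.90, 6.53 and 6.17 RPKM. Cd209a went from 18.7 to 0.202 RPKM between the GL261 tables and stood at 4.01 RPKM in U87-MG vehicle samples. Day, table, host label, IgG injection and pooling of animals all differ between the 21 and 28 DPI tables and cannot be told apart.

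**Figure D1:**
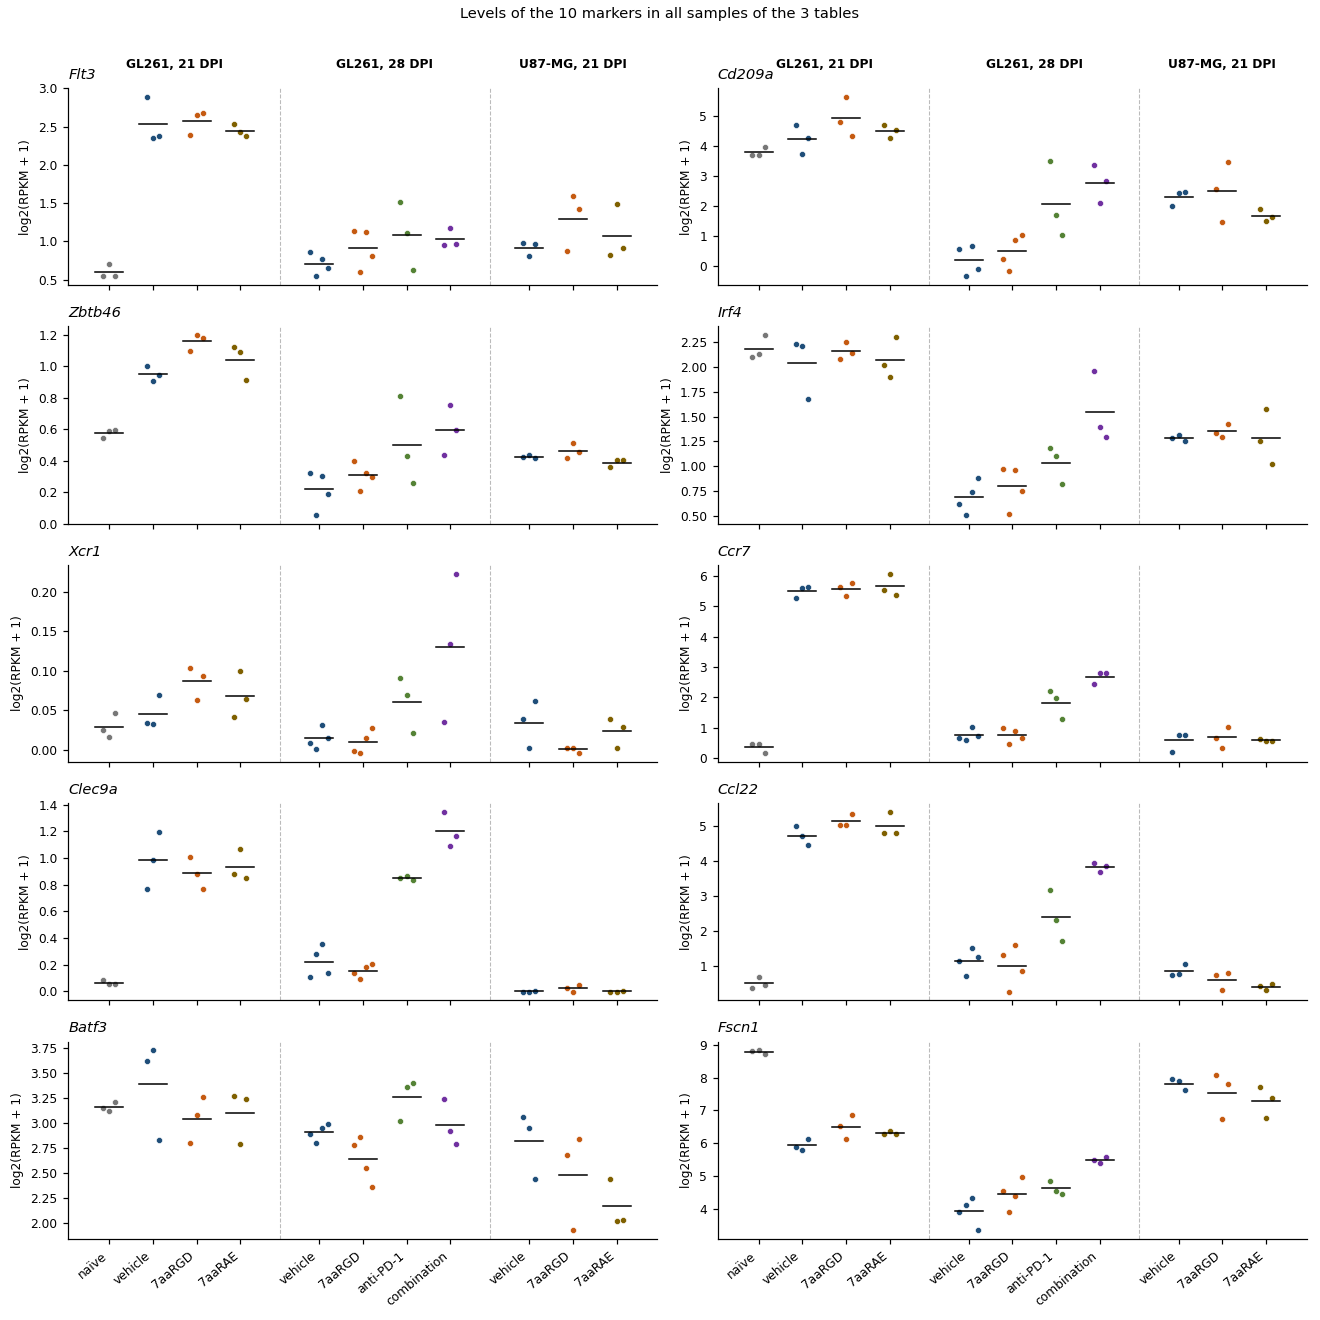
Level of the 10 dendritic cell markers, as log2(RPKM + 1), in every sample of the 3 tables by group, with a panel and a scale of its own per gene; points are samples and bars are group means of the log values. Ccr7 and Ccl22 are near 0 in naïve mice, high in every 21 DPI glioma group and low in the U87-MG table, while Fscn1 is highest in naïve mice at 440 RPKM.

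At 21 DPI, CD11b+ cells from vehicle-treated GL261 gliomas carried far more Ccr7, Ccl22 and Flt3 RNA than those from naïve mice, and far less Fscn1. Naïve samples held 0.384, 0.377 and 0.115 RPKM of Ccr7 and vehicle samples 37.5, 47.6 and 49.1 RPKM. For Ccl22 the naïve values were 0.303, 0.593 and 0.364 RPKM against 31.2, 25.6 and 21.1 in vehicle samples. No sample of one group came near the other for either gene, and for 35.6% of genes tested all vehicle samples lay above all naïve ones (49.8% below). On the log2(RPKM + 1) scale used for all differences, Ccr7 rose by 5.14 ± 0.12 (SE; adjusted p = 1.53e-08, limma with Benjamini-Hochberg adjustment) and Ccl22 by 4.24 ± 0.14 (adjusted p = 6.18e-08). Flt3 was at 0.458, 0.635 and 0.460 RPKM in naïve mice and at 6.41, 4.10 and 4.20 with tumors, a rise of 1.94 ± 0.14 (adjusted p = 4.26e-06).

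Fscn1 moved the other way. Its naïve samples were at 444, 452 and 423 RPKM and its vehicle samples at 58.2, 55.2 and 69.6 RPKM, so that it fell by 2.84 ± 0.09 on the log2 scale (adjusted p = 5.10e-08). The summed level of 10 microglia markers moved with it, at 16269 RPKM in naïve and 1741 RPKM in vehicle samples (1346 to 1952), and all 10 of them fell, led by Sall1, P2ry13 and P2ry12; their part in the Fscn1 result was not tested. Batf3 (0.23, adjusted p = 0.330), Cd209a (0.44, adjusted p = 0.0957) and Irf4 (-0.15, adjusted p = 0.385) overlapped between the groups and did not pass the test. Among 9722 genes tested 82.9% passed, 34.6% higher and 48.2% lower, so 4 of 7 tested members is no more than the background. Flt3, Ccr7 and Ccl22 were tested because of their level in the tumor samples, which left them little room not to differ. TMM scaling moved the median of all genes by 0.13, from -0.14 to -0.0086, which is of the size of the Irf4 and Batf3 differences, and Cd209a passed under it (adjusted p = 0.0334).

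Of the members under the filter, Zbtb46 was at 0.459, 0.502 and 0.510 RPKM in naïve and 1.00, 0.875 and 0.921 RPKM in vehicle samples. Clec9a was at most 0.0581 RPKM in naïve mice and at 0.703, 0.979 and 1.28 RPKM with tumors. In a fit without the filter on low values both were higher in the vehicle group (Zbtb46 by 0.37, adjusted p = 0.000354; Clec9a by 0.92, adjusted p = 0.000574), where 59.5% of all genes passed. T cell markers, cells that can carry Ccr7, summed to 0.722 RPKM in naïve and 3.40 RPKM in vehicle samples, and NK cell markers to 0.580 and 24.1 RPKM. Monocyte markers summed to 36.8 and 1718 RPKM and macrophage markers to 590 and 4992 RPKM, in the same order. The part of these cells in these results was not tested. Xcr1 stayed at or under 0.0491 RPKM in both groups (0.02, adjusted p = 0.405).

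The wider lists are given as counts beside the 82.9% of all genes that passed in this comparison (34.6% higher, 48.2% lower). Some of their genes, such as Kmo and Traf1 (0.0785 RPKM in naïve mice), were tested because of their level in the tumor samples, as for the members, so the counts cannot be read as support. The core list includes Flt3 and Zbtb46, the cDC1 list Xcr1, Clec9a and Batf3, and the cDC2 list Cd209a and Irf4. The mature list includes Ccr7, Ccl22 and Fscn1, and the transcription factors Zbtb46, Batf3 and Irf4. Calls of these members are thus counted again. All 7 tested genes of the conventional lineage core were higher (median 2.71, against -0.14 over all genes), among them Itgax (CD11c), from 6.60 to 134 RPKM, Ciita, the master regulator of MHC class II, from 1.21 to 41.9 RPKM, Kmo and Traf1. Of the mature migratory list 17 of 21 tested genes were higher and 3 lower (median 1.93), and Cd40, a co-stimulatory receptor, went from 0.290 to 39.8 RPKM (4.97, adjusted p = 1.64e-08). The cDC1 list gave 3 higher and 3 lower of 9 (median 0.07), with Naaa up from 24.3 to 128 RPKM and Cadm1 and Tlr3 down. The cDC2 list gave 4 higher and 3 lower of 12 (median 0.23), with Klf4, Cd7 and Tnip3 up and Sirpa, which microglia also express, down from 852 to 280 RPKM. The plasmacytoid list had 1 higher and 3 lower of 5, and its most changed gene, Siglech (347 to 34.7 RPKM), is on the microglia list too. Of 15 tested transcription factors 11 were higher and 2 lower, and of 6 ligands and partner receptors 5 were higher, with Cxcl9 and Cxcl10, chemokines that draw CXCR3+ T cells, at 270 and 238 RPKM in vehicle samples against 0.433 and 1.11 in naïve mice.

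Neither peptide moved a member past the threshold in 21 DPI gliomas. With 7aaRGD, 0 of 8 tested members passed by limma, against 0.148% of 9436 genes, while 2 of 8 had an unadjusted p under 0.05, against 13.5% of genes. These were Fscn1, at 91.2, 68.6 and 115 RPKM with 7aaRGD (0.55, 95% CI 0.19 to 0.92, adjusted p = 0.231), and Zbtb46, at 1.14, 1.29 and 1.27 RPKM (0.21, adjusted p = 0.272). Ccl22 was at 31.6, 31.9 and 40.1 RPKM, just above the highest vehicle sample (0.41, CI -0.01 to 0.82, adjusted p = 0.377). Zbtb46 and Ccl22 did not overlap with vehicle, as was so for 12.5% of genes in that direction. Cd209a was at 27.4, 49.4 and 19.3 RPKM against 25.1, 12.3 and 18.6 (0.70, CI -0.03 to 1.43, adjusted p = 0.384), so the groups overlapped. Ccr7 differed by 0.08 with an interval of -0.34 to 0.49, and the adjusted p-values of Flt3, Batf3 and Irf4 ran from 0.548 to 0.937.

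With 7aaRAE, which shares its vehicle samples with the 7aaRGD comparison, 0 of 8 members passed by limma, and 0% of genes did so. Here 1 of 8 members had an unadjusted p under 0.05, against 6.36% of genes: Fscn1, at 77.2, 81.7 and 77.1 RPKM, lay above every vehicle sample, as was so for 6.13% of genes (0.37, CI 0.01 to 0.73, adjusted p = 0.718). Ccl22 was at 26.8, 41.5 and 27.3 RPKM (0.27, adjusted p = 0.764) and Ccr7 at 45.1, 66.2 and 40.2 RPKM (0.15, adjusted p = 0.853). The peptides, which differ in the replaced motif, were also set against each other: 0 of 8 members passed, 0% of genes did, and 5.51% of genes but no member had an unadjusted p under 0.05. Intervals of the difference between 7aaRGD and 7aaRAE ran from -0.18 to 0.55 for Fscn1, from -0.29 to 0.55 for Ccl22, from -0.49 to 0.35 for Ccr7 and from -0.30 to 1.16 for Cd209a. No gene of the dendritic cell lists passed in these 3 comparisons.

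At 28 DPI the mature migratory genes Ccr7 and Ccl22 were low in vehicle samples and rose with anti-PD-1 antibody. The means of Ccr7, Ccl22 and Fscn1 were highest in the combination group. Ccr7 was at 0.583, 0.496, 1.03 and 0.630 RPKM with vehicle and at 0.975, 0.369, 0.864 and 0.567 RPKM with 7aaRGD. It was at 3.59, 2.96 and 1.44 RPKM with anti-PD-1 and at 4.43, 5.92 and 5.99 RPKM with the combination. Every sample that received the antibody lay above every sample that did not, and the combination samples lay above all others. Over all genes tested, 15.4% had every anti-PD-1 sample and 20% every combination sample above every vehicle sample. Those are looser rules, and the share of genes with the stricter orders over all groups was not counted, here or for Ccl22 and Fscn1. Ccr7 rose by 1.08 ± 0.20 with anti-PD-1 (adjusted p = 0.00217) and by 1.94 ± 0.20 with the combination (adjusted p = 9.76e-06). Its mean was under 1 RPKM with vehicle and with 7aaRGD, and it was tested because of its level in the antibody-treated groups. Its p-values thus cannot be read as support.

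Ccl22 had the same order. Vehicle samples held 1.21, 0.639, 1.87 and 1.38 RPKM and 7aaRGD samples 1.5, 0.205, 2.01 and 0.826 RPKM. Anti-PD-1 samples held 8.08, 3.98 and 2.31 RPKM and combination samples 14.6, 12 and 13.5 RPKM, so the lowest antibody-treated sample was only just above the highest 7aaRGD sample while the combination stood clear. The gene rose by 1.25 ± 0.33 with anti-PD-1 (adjusted p = 0.0158) and by 2.68 ± 0.33 with the combination (adjusted p = 4.15e-05). Fscn1 was at 14.1, 16.6, 19.1 and 9.32 RPKM with vehicle, at 22.6, 14.1, 20.2 and 30.7 with 7aaRGD, at 28.0, 22.7 and 21.1 with anti-PD-1 and at 43.7, 41.4 and 47.2 with the combination. It rose by 1.56 ± 0.23 with the combination (adjusted p = 0.000184), whose samples lay above all others. With anti-PD-1 it differed by 0.69 ± 0.23 at the edge of the threshold (adjusted p = 0.0468), and it stayed past it in 5 of 9 alternative settings and 3 of 14 fits with 1 sample left out (adjusted p from 0.0251 to 0.150 over those 14).

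The cDC2 genes rose with the combination as well. Cd209a was at 0.490, -0.209, 0.596 and -0.0708 RPKM with vehicle and at 0.174, -0.100, 0.835 and 1.08 RPKM with 7aaRGD. It was at 10.3, 2.29 and 1.07 RPKM with anti-PD-1 and at 9.29, 3.29 and 6.12 RPKM with the combination. The anti-PD-1 samples spread over the whole of that range, and the lowest of them was level with the highest 7aaRGD sample. Cd209a rose by 1.89 ± 0.50 with anti-PD-1 (adjusted p = 0.0165) and by 2.56 ± 0.50 with the combination (adjusted p = 0.00124). Irf4 was at 0.540, 0.424, 0.665 and 0.840 RPKM with vehicle, at 1.27, 1.14 and 0.764 with anti-PD-1 and at 2.90, 1.64 and 1.44 with the combination. The anti-PD-1 and vehicle samples overlapped (0.35, adjusted p = 0.145), while the combination samples lay above both and Irf4 rose by 0.86 ± 0.16 (adjusted p = 0.00101). Cd209a and Irf4 averaged under 1 RPKM with vehicle and with 7aaRGD and were tested because of their level in the antibody-treated groups. Their p-values thus cannot be read as support.

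Of the cDC1 genes, Clec9a was higher in both antibody-treated groups in a fit without the low-value filter and Batf3 did not pass. Clec9a was at 0.0771, 0.215, 0.278 and 0.101 RPKM with vehicle and at 0.101, 0.0687, 0.135 and 0.151 RPKM with 7aaRGD. It was at 0.801, 0.824 and 0.781 RPKM with anti-PD-1 and at 1.54, 1.13 and 1.24 RPKM with the combination. The vehicle, anti-PD-1 and combination samples did not overlap, but its mean was under 1 RPKM and it entered only the fit without the filter on low values, where it was higher by 0.63 with anti-PD-1 (adjusted p = 0.000286) and by 0.98 with the combination (adjusted p = 2.88e-06). In those fits 12.9% and 28.6% of all genes passed. Xcr1 reached 0.0646 RPKM with anti-PD-1 and 0.167 RPKM with the combination from at most 0.0224 with vehicle (combination 0.12, adjusted p = 0.0194), at levels near the floor. Batf3 was at 6.43, 5.97, 6.74 and 6.98 RPKM with vehicle, at 7.14, 9.26 and 9.60 with anti-PD-1 and at 8.43, 6.57 and 5.92 with the combination. The anti-PD-1 samples lay above the vehicle samples without passing (0.35, adjusted p = 0.0754), and the combination overlapped with vehicle (0.07, adjusted p = 0.689).

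The lineage genes were low and were not tested at the filter used. Flt3 was between 0.459 and 0.814 RPKM with vehicle, at 1.85, 1.15 and 0.544 with anti-PD-1 and at 0.945, 1.25 and 0.952 with the combination (0.32, adjusted p = 0.218 without the filter). Zbtb46 was at 0.247, 0.0401, 0.233 and 0.142 RPKM with vehicle, at 0.751, 0.348 and 0.194 with anti-PD-1 and at 0.351, 0.685 and 0.514 with the combination. Without the filter its difference was 0.28 with anti-PD-1 (adjusted p = 0.134) and 0.38 with the combination (adjusted p = 0.0278).

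**Figure D2:**
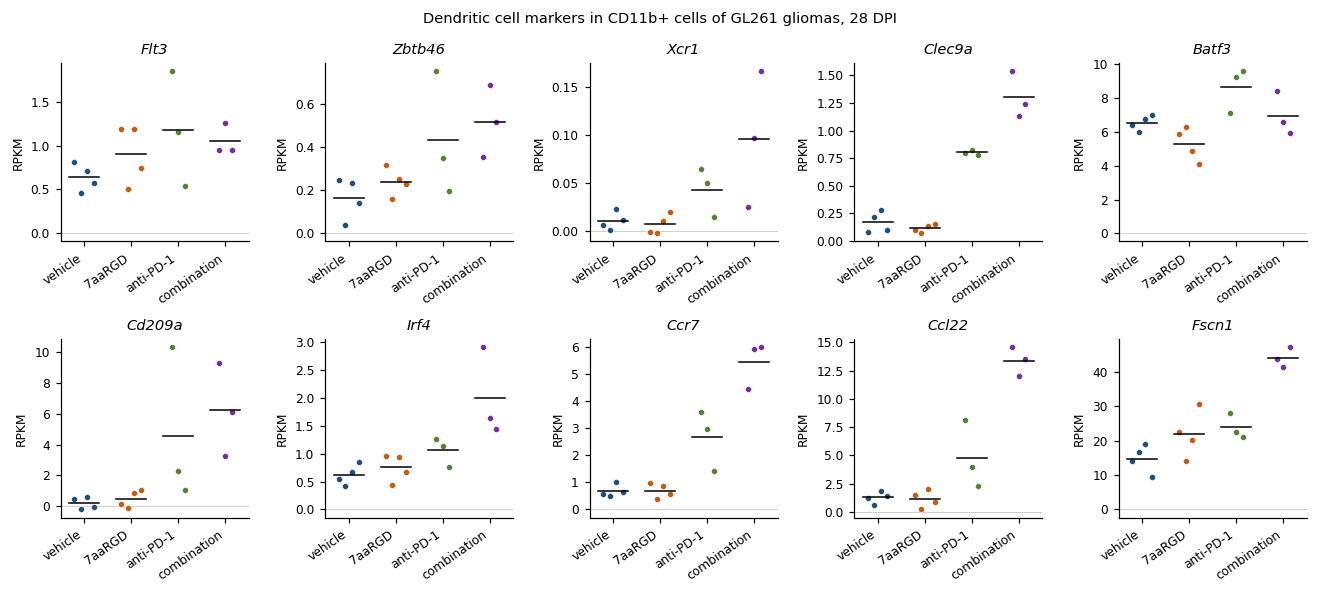
RPKM of the 10 markers in each of the 14 GL261 samples at 28 DPI by treatment; points are samples and bars are group means. The combination samples of Ccr7 (4.43 to 5.99 RPKM), Ccl22 (12 to 14.6) and Fscn1 (41.4 to 47.2) lie above every other sample, while Batf3 overlaps between groups. The share of all genes with that order was not counted.

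In counts, 4 of 6 tested members were higher with anti-PD-1, where 23.1% of 9732 genes passed (10.8% higher), and 5 of 6 were higher with the combination, where 43.3% passed (17.5% higher). Cd209a, Irf4 and Ccr7 had a vehicle mean under 1 RPKM and entered the test through the antibody-treated groups, so these counts cannot be read as support. The median over the tested members was 0.89 with anti-PD-1 and 1.75 with the combination, against -0.01 and -0.05 over all genes. Of the genes called with the combination 40.5% were higher, and 51.7% after TMM scaling, which moved the median of all genes by 0.051. Both comparisons share the vehicle samples. Without the filter 8 of the 10 members passed with the combination, where 28.6% of genes did. Anti-PD-1 sample 1 carried much of that group's result: without it Cd209a (adjusted p = 0.0647), Ccl22 (0.0727) and Fscn1 (0.150) no longer passed and 2 members did, Ccr7 and Batf3 (adjusted p = 0.0376).

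**Figure D3:**
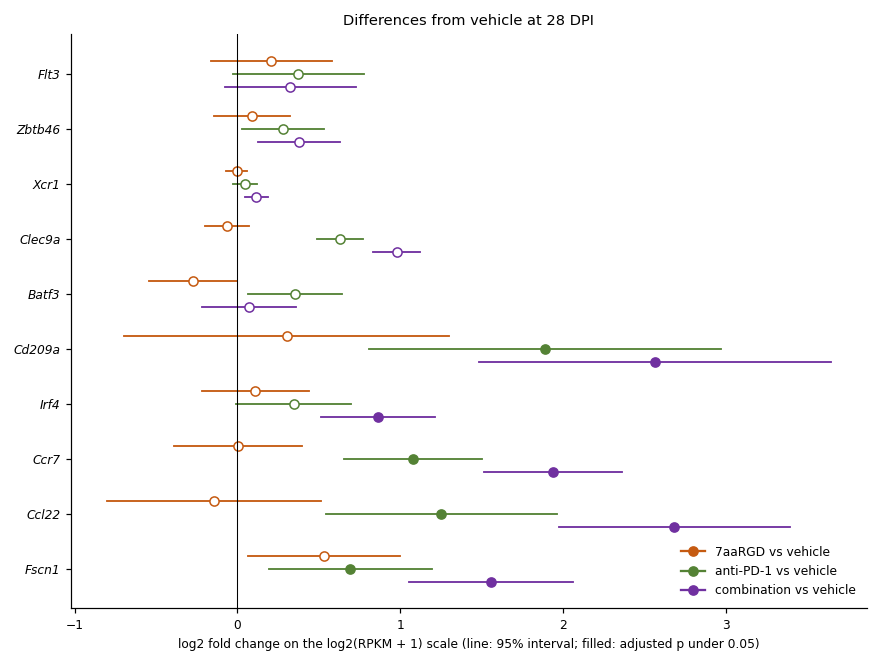
Differences on the log2(RPKM + 1) scale for each marker at 28 DPI against vehicle, with 95% confidence intervals; filled points passed the threshold, open points did not or come from the fit without the filter. With the combination Ccl22 sits at 2.68, Cd209a at 2.56 and Ccr7 at 1.94, and with 7aaRGD alone the intervals of Ccr7 and Ccl22 hold 0.

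7aaRGD alone moved no member past the threshold at 28 DPI: 0 of 6 passed by limma, where 0.647% of genes did. Fscn1 (0.53, CI 0.07 to 1.00, adjusted p = 0.272) and Batf3 (-0.27, CI -0.54 to -0.0047, adjusted p = 0.336) had an unadjusted p under 0.05, as did 14.6% of genes. Ccr7 differed by 0.00 (CI -0.39 to 0.39), Ccl22 by -0.14 (CI -0.80 to 0.51) and Cd209a by 0.30 (CI -0.70 to 1.30). Against 7aaRGD alone, the combination was higher for 5 of 6 tested members, where 36.6% of genes passed (13% higher): Ccr7 by 1.93 (adjusted p = 2.89e-05), Ccl22 by 2.83 (5.75e-05), Cd209a by 2.26 (0.00379), Fscn1 by 1.03 (0.00439) and Irf4 by 0.75 (0.00338). Cd209a, Irf4 and Ccr7 had a mean under 1 RPKM with 7aaRGD too, so this count cannot be read as support either. Of the genes called there 35.6% were higher, and 51.3% after TMM scaling.

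Whether 7aaRGD added to anti-PD-1 was tested directly, and no member passed. Against anti-PD-1 alone the combination was higher in Ccl22 by 1.43 (CI 0.67 to 2.19, adjusted p = 0.0901), in Ccr7 by 0.86 (CI 0.41 to 1.31, adjusted p = 0.0901), in Fscn1 by 0.86 (CI 0.33 to 1.40, adjusted p = 0.129) and in Irf4 by 0.52 (CI 0.14 to 0.90, adjusted p = 0.188). In each of these 4 genes every combination sample lay above every anti-PD-1 sample, as was so for 6.24% of all genes, and each had an unadjusted p under 0.05, as did 15% of genes. Irf4 averaged 0.617 RPKM with vehicle, 0.753 with 7aaRGD and 1.06 with anti-PD-1. It reached the filter through the combination group (1.99 RPKM), so the count of 4 cannot be read as support. By limma 0 of 6 members and 0.0411% of genes passed. The groups of Cd209a and Batf3 overlapped, and for Clec9a, fitted without the filter, the difference was 0.35 (adjusted p = 0.0778). The interaction term, which asks whether the combination goes beyond the sum of both single treatments, was 1.57 for Ccl22 (CI 0.57 to 2.58, unadjusted p = 0.00476) and 0.85 for Ccr7 (CI 0.26 to 1.45, unadjusted p = 0.00855), both with an adjusted p of 0.587. It was 0.41 for Irf4 and 0.33 for Fscn1 (adjusted p = 0.664 and 0.806), and 0% of genes passed while 8.16% had an unadjusted p under 0.05.

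The lists around the members were counted in the same way for the combination at 28 DPI, where 43.3% of all genes passed (17.5% higher). They include the members, whose calls are counted again here. The lists also hold genes that other myeloid cells express. Genes such as Traf1 and Il4i1 were under 1 RPKM with vehicle and entered the test through the antibody-treated groups. The counts thus cannot be read as support. Of the mature migratory list 12 of 18 tested genes were higher and 1 lower (median 0.98, against -0.05 over all genes). Il4i1, an amino acid oxidase that dampens T cells, went from 0.443 to 2.66 RPKM (1.33, adjusted p = 2.58e-05), and Apol7c, Relb, Cd40, Ccl17 and Marcksl1 were among the others. Socs2, a feedback inhibitor of cytokine signals, fell by 0.75 (4.00 to 2.01 RPKM, adjusted p = 0.0277). Of the cDC2 list 9 of 10 were higher (median 0.89), with Ltb, a lymphotoxin subunit, at 1.65 and 4.03 RPKM, Notch2, whose signal cDC2 need, at 28.7 and 39.7 RPKM, Cd1d1, Clec10a and Mgl2. Itgam, the gene of the sorted marker, is on this list and was itself higher (61.2 to 79.8 RPKM, 0.38, adjusted p = 0.00740).

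The other lists were mixed. The lineage core had 3 higher and 1 lower of 5 (median 1.25), with Traf1 (0.573 to 3.41 RPKM), Ciita (19.5 to 46.9) and Kmo (1.1 to 4.21) higher, while Itgax fell by 0.61 (206 to 136 RPKM, adjusted p = 0.0464). The cDC1 list had 3 higher and 1 lower of 8 (median 0.18): Tlr3, a sensor of double-stranded RNA, Irf8 and Wdfy4 rose by 0.61, 0.36 and 0.30, and Cadm1 fell by 0.75. The plasmacytoid list had 2 higher and 1 lower of 6 (median -0.06), Tlr9 and Siglech against Tlr7. Of the ligands and partner receptors 4 of 6 were higher and 1 lower, with Il15, which sustains CD8+ T and NK cells, at 1.72 and 4.32 RPKM (0.98, adjusted p = 3.74e-05), Ccl5 at 165 and 614 RPKM and Cxcl10 at 53.7 and 121 RPKM. Flt3l was at 0.545 and 0.688 RPKM, the CCR7 ligands Ccl19 and Ccl21a and the CCL22 receptor Ccr4 were at 0.0358 RPKM or less in every 28 DPI group, and Xcl1, the XCR1 ligand, went from 0.0127 to 1.19 RPKM without being tested. Among 15 transcription factors 6 were higher and 1 lower, with Nfkb2 (17.0 to 39.3 RPKM) and Relb (10.5 to 22.4 RPKM), partners in the noncanonical NF-kB pathway, and Zeb2 among the higher ones and Runx3 the lower one.

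With anti-PD-1 alone, where 23.1% of all genes passed (10.8% higher), the counts were lower in the mature, cDC2 and core lists and the same in the cDC1 and plasmacytoid lists. There were 8 higher of 18 in the mature list (median 0.43), 1 of 10 in the cDC2 list (median 0.39), 3 higher and 1 lower of 8 in the cDC1 list (median 0.23) and 2 of 5 in the lineage core (median 0.63), against a median of -0.01 over all genes. Apol7c, an apolipoprotein L of mature dendritic cells, went from 2.41 to 21.3 RPKM (2.54, adjusted p = 0.00453) and Nfkb2 from 17.0 to 31.0 RPKM (0.80, adjusted p = 0.000991). The single gene of the cDC2 list was Cd209a. 7aaRGD alone moved none of the tested genes of the 7 dendritic cell lists past the threshold. Whether the lists differ between anti-PD-1 and the combination was tested gene by gene only, and none of their genes passed in the mature, cDC1, cDC2 or core lists.

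**Figure D4:**
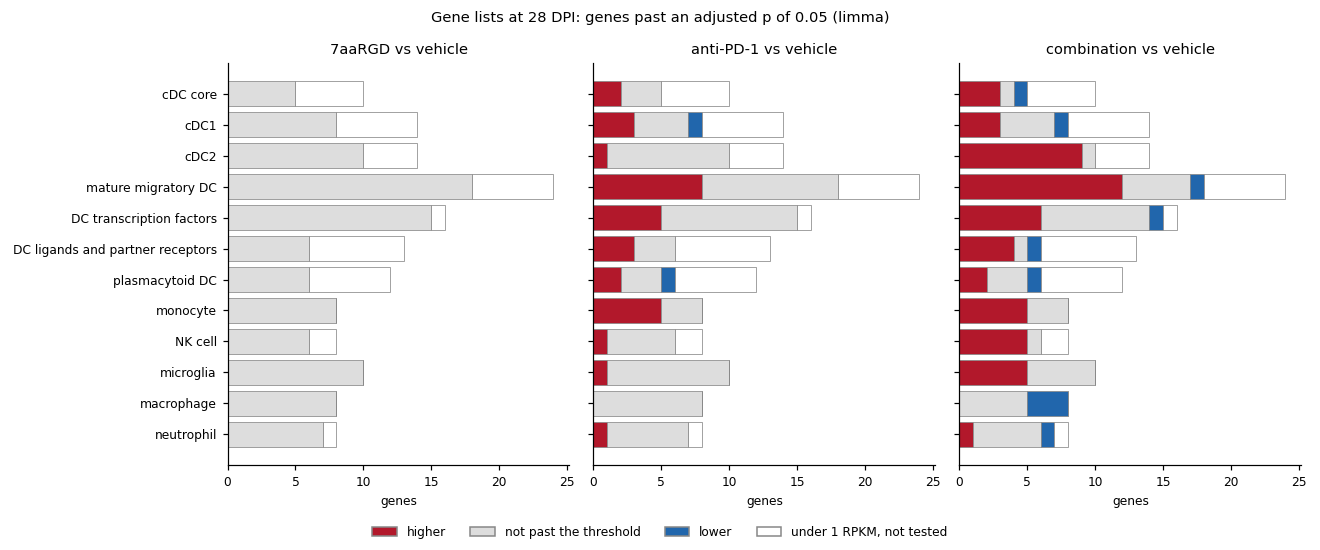
Number of genes of each list that were higher (red), lower (blue) or not past an adjusted p of 0.05 (grey) at 28 DPI against vehicle, with white for genes under 1 RPKM that were not tested; bar length is the list size. The red part of the combination panel covers 9 genes of the cDC2 list and 12 of the mature migratory list, and the 7aaRGD panel has no red or blue. The dendritic cell lists include the members themselves.

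Markers of other cells moved in the same samples. The summed level of 8 NK cell markers averaged 9.06 RPKM with vehicle (3.64 to 12.4), 42.8 with anti-PD-1 (5.12 to 71.0) and 65.5 with the combination (29.5 to 84.0), and 5 of 6 tested were higher with the combination. T cells can carry Ccr7, and 8 T cell markers summed to 1.82 RPKM (1.35 to 2.52), 3.04 (1.33 to 4.63) and 4.93 (3.85 to 6.47), with Cd3e at 0.0448, 0.2 and 0.265 RPKM. B cells can carry Ccr7 as well, and 8 B cell and plasma cell markers summed to 7.34 RPKM with vehicle (5.80 to 8.88), 7.05 with anti-PD-1 (5.64 to 8.44) and 9.48 with the combination (7.30 to 12.1), with Ms4a1 at or under 0.0418 RPKM in the group means. Monocytes can carry Cd209a, and 8 monocyte markers summed to 291 RPKM with vehicle (183 to 353), 636 with anti-PD-1 (391 to 934) and 455 with the combination (381 to 595), with 5 of 8 higher in each. Microglia markers, which moved with Fscn1 at 21 DPI, summed to 1719 RPKM (1536 to 2162), 2010 and 2338 (2226 to 2427), with 1 and 5 of 10 higher, and 7aaRGD samples averaged 2303 RPKM (1655 to 3170). Macrophage markers, the highest of these sums, went the other way. They were at 15124 RPKM with vehicle (12876 to 16206), 11518 with anti-PD-1 (9993 to 13190) and 11088 with the combination (9802 to 12142). With the combination 3 of 8 were lower, and 7aaRGD samples averaged 13624 RPKM. The part of these cells in the results of the members was not tested.

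In U87-MG gliomas the mature migratory chemokine genes were near the floor and neither peptide moved a member past the threshold. Ccr7 ranged from 0.156 to 1.04 RPKM and Ccl22 from 0.246 to 1.08 RPKM over the 9 samples, Clec9a did not exceed 0.0311 RPKM and Xcr1 did not exceed 0.0434 RPKM. Fscn1 was high, at 246, 236 and 196 RPKM with vehicle, at 269, 106 and 225 with 7aaRGD and at 209, 109 and 167 with 7aaRAE, beside 9729 RPKM of summed microglia markers in the vehicle group. With 7aaRGD 0 of 5 tested members and 0% of genes passed by limma, and 3.77% of genes but no member had an unadjusted p under 0.05. With 7aaRAE 0 of 5 members and 0.0104% of genes passed, 1 of 5 members and 7.72% of genes having an unadjusted p under 0.05. That member was Batf3, at 4.43, 3.07 and 3.09 RPKM against 7.36, 6.73 and 4.41 with vehicle (-0.65, CI -1.22 to -0.08, adjusted p = 0.567). Cd209a was at 2.73, 1.86 and 2.16 RPKM with 7aaRAE, under every vehicle sample (3.00, 4.50 and 4.53 RPKM), as was so for 9.46% of genes (-0.62, adjusted p = 0.701). With 7aaRGD it was at 5.01, 1.77 and 10.2 RPKM, which spans the vehicle samples. Between the peptides 0 of 5 members and 0% of genes passed, 3.38% of genes but no member having an unadjusted p under 0.05, and the intervals ran from -0.11 to 1.76 for Cd209a and from -0.51 to 1.02 for Fscn1. The 1 gene that passed in the whole table with 7aaRAE, Il15ra, the receptor that presents IL-15, is on the mature migratory list (1.78 to 5.96 RPKM, 1.32, adjusted p = 0.00332).

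The genes whose pattern was most like that of a member were looked up by Pearson correlation within the tumor-bearing samples of each table (n = 9, 14 and 9), averaged over the 3 tables, for the 4 members whose mean reached 1 RPKM in every table. Cd209a was most like Arhgap26 (0.92), Vcan (0.90), a proteoglycan on the monocyte list, and Tiam1 (0.90). Fscn1 was most like Rab6b, Rtn1 and Jam2 (0.90, 0.89 and 0.89). Batf3 and Irf4 had looser companions, Wdfy2, Evl and B3galt4 (0.79, 0.79 and 0.78) and Syk, Nck1 and Stat5a (0.70 each). Over the GL261 tables alone, a choice made after the data were seen, Ccr7 was most like Ramp3, Tmem39a and Serpinb6b (0.93, 0.92 and 0.91) and Ccl22 most like Dnajb2, S100a11 and Mtmr4 (0.90, 0.86 and 0.86). Among the members at 28 DPI, r was 0.98 for Ccl22 with Ccr7, 0.94 for Ccr7 with Clec9a, 0.91 for Ccl22 with Cd209a and -0.01 for Fscn1 with Batf3 (n = 14). In the same order these pairs stood at 0.44, 0.51, 0.15 and -0.51 at 21 DPI (n = 9). In U87-MG they stood at 0.47, 0.66, 0.74 and 0.87 (n = 9), with Clec9a near the floor there. The samples of a table share their treatment groups and normalization, so these values describe the tables and were not tested.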

How the data were processed

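RNA of sorted CD11b+ cells was measured in 35 samples by stranded poly-A RNA-seq. According to the labels and methods, STAR alignments of Trimmomatic-trimmed reads to mm10 were counted per gene by the authors using HTSeq 0.11.1. The deposited values are RPKM plus a constant of 2, a unit read from the values, since how they were scaled and why 2 was added is not given in the sources used here. Some values lie under the constant, and the differences between replicates span 7 of 8 possible dimensions at 21 DPI, 9 of 10 at 28 DPI and 6 of 6 in U87-MG, so at least 1 component was missing from the replicate spread of both GL261 tables, and its effect on p-values was not tested. Read counts could not be recovered, count tests were not used and depth is unknown.

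The constant was subtracted, negative values were kept, and log2(RPKM + 1) was fitted with limma 3.58.1 (R 4.3.3, trend) over protein-coding genes (GENCODE vM21; 98.7% of rows matched) that averaged 1 RPKM or more over the fitted samples. Tumor-bearing groups of a table were fitted together, and naïve with vehicle samples alone. P-values are two-sided, with Benjamini-Hochberg adjustment over all genes tested and a cutoff at 0.05. The script was tested on simulated data. Members, lists, tests and alternatives were chosen with earlier results of these data known. All 10 members are named, the genes of other lists by the lowest adjusted p (up to 4 a list and comparison) with others named after their values were seen, and 3 genes per member by correlation.

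Residuals of same-numbered samples correlated above 0.1 in 1 of 9 pairs in the 21 DPI table (-0.775 to 0.123) and 3 of 19 pairs in the 28 DPI table (-0.499 to 0.366). A component is missing from the replicate spread of both tables, so these values cannot show whether the numbers mark pairs. In the main fits the numbers were not treated as pairs. Alternatives were other pseudocounts, filters, scalings, gene sets and groups fitted, the replicate number as a block, and leaving out each sample. Samples of 28 DPI mice were grouped by their treatment labels.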

Additional observations from a re-analysis of the deposited data

Results flagged for a closer look

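In 4 cases every treated sample lay on one side of the vehicle mean in 21 DPI GL261 gliomas and on the other side in U87-MG gliomas. All 10 members were looked at in each pair of tables with the same peptide. The share of all genes that meet this loose rule was not counted, so the cases have no background to be set against. The difference between the tables was not tested. For Ccl22 the 7aaRGD mean differed from vehicle by 8.56 RPKM in GL261 and by -0.272 RPKM in U87-MG, and the 7aaRAE mean by 5.91 and -0.490 RPKM. Fscn1 with 7aaRAE differed by 17.7 RPKM in GL261 and by -64.4 RPKM in U87-MG. Xcr1 with 7aaRGD differed by 0.0299 and -0.0240 RPKM, at levels near the floor. None of these differences passed the test within its own table, and host strain and tumor line differ together between the tables. Dixon's criterion at the 95% level was applied to each member in the 28 DPI vehicle and 7aaRGD groups, which hold 4 samples. In these 20 sets of values no sample stood apart. Smaller groups were not looked at, the anti-PD-1 and combination groups among them.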

How the results depend on the processing

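The number of members past the threshold changed most with the filter on low values. With a mean of at least 5 RPKM, where of the members only Batf3 and Fscn1 remain tested at 28 DPI, 1 member passed with anti-PD-1, 1 with the combination and 1 for the combination against 7aaRGD. Without a filter 8 passed with the combination. For the combination against anti-PD-1, 1 passed with a pseudocount of 5 (Ccl22, adjusted p = 0.0437, over its alternatives 0.0437 to 0.227). Leaving out 1 sample gave 2 to 4 members with anti-PD-1, 4 to 5 with the combination, 4 to 6 against 7aaRGD and 4 to 5 for vehicle against naïve mice. Cd209a passed for vehicle against naïve mice without vehicle replicate 2 (adjusted p = 0.00259) and Batf3 without vehicle replicate 3 (adjusted p = 0.000159), by limma. Batf3 also passed for the combination against 7aaRGD with TMM factors (adjusted p = 0.0283) and without 7aaRGD replicate 2, anti-PD-1 replicate 1 or combination replicate 3. Without combination replicate 1 or 2 Irf4 fell under the filter. With median-of-ratios factors 3 of 110 group levels moved by more than 1 SD, all in naïve mice (Zbtb46 0.453, Batf3 7.34 and Fscn1 406 RPKM). Of the 12 most similar genes 4 remained with Spearman's rho and 3 over the GL261 tables alone.

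No called member changed direction under any alternative. Uncalled differences changed sign in 47 fits of 21 results: Ccr7 with 7aaRGD at 28 DPI was -0.012 with a pseudocount of 0.1, the interaction of Batf3 0.0038 with that pseudocount, 0.051 with TMM and 0.050 with median-of-ratios factors, and Irf4 with 7aaRAE in U87-MG 0.0028 with a pseudocount of 5. Leaving out 1 sample gave, for vehicle against naïve mice, -0.24 to 0.035 for Irf4. For 7aaRGD against vehicle at 21 DPI it gave -0.060 to 0.21 for Flt3, -0.062 to 0.22 for Irf4 and -0.043 to 0.20 for Ccr7. For 7aaRAE against vehicle it gave -0.19 to 0.079 for Flt3, -0.15 to 0.13 for Irf4 and -0.060 to 0.29 for Ccr7. Between the peptides it gave -0.21 to 0.070 for Batf3, -0.0039 to 0.20 for Irf4 and -0.22 to 0.14 for Ccr7. At 28 DPI it gave -0.076 to 0.10 for Ccr7 and -0.34 to 0.11 for Ccl22 with 7aaRGD, -0.055 to 0.17 for Batf3 with the combination, and -0.13 to 0.089 for Batf3 and -0.15 to 1.08 for Cd209a in the interaction. In U87-MG it gave -0.28 to 0.73 for Cd209a and -0.54 to 0.13 for Fscn1 with 7aaRGD, -0.051 to 0.28 for Flt3 and -0.15 to 0.13 for Irf4 with 7aaRAE, and -0.061 to 0.21 for Irf4 and -0.013 to 0.65 for Fscn1 between the peptides. The cause of these shifts was not tested.

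With the replicate number as a block, 3 members passed with anti-PD-1 (Fscn1 lost, adjusted p = 0.0981), 5 with the combination, 5 against 7aaRGD, 4 for vehicle against naïve mice and 0 elsewhere. Each sample was most like one of its own number in 1 of 9 samples at 21 DPI and 3 of 14 at 28 DPI. Over all genes the block left 1824 calls with anti-PD-1, 3767 with the combination and 0 with 7aaRGD at either time. No such block could be fitted for U87-MG, because its header gives the same name and number to all 3 columns of a group. Those columns were taken to be the 3 samples of the group, which the header does not state.

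Counts over all genes were unstable where few genes passed. They ran over the planned settings from 0 to 41 for 7aaRGD at 21 DPI (14 as reported), from 0 to 93 for 7aaRGD at 28 DPI (63), from 0 to 20 for the combination against anti-PD-1 (4), from 0 to 32 for 7aaRAE in U87-MG (1) and from 0 to 7 between the peptides at 21 DPI (0). For vehicle against naïve mice the lowest was 5286 (8056), with the stricter filter, and leaving out 1 sample took anti-PD-1 from 2245 to as low as 1357. Precision is limited by 3 or 4 samples a group, by unknown depth and by values under the constant.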
